A study of Mus musculus with 3 samples.

Results

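The adenylyl cyclases, guanylyl cyclases, cyclic nucleotide phosphodiesterases and protein kinase A subunits were followed in messages bound to tagged ribosomes of the mouse prefrontal cortex. Members were taken by symbol: Adcy genes with a number, Pde genes with a number other than Pde10a and Pde4dip, all Gucy genes, and the genes of the catalytic and regulatory protein kinase A subunits. The rule found 49 of the 32531 gene symbols in the count tables: 10 adenylyl cyclases, 24 phosphodiesterases, 9 guanylyl cyclase genes and 6 protein kinase A subunits. Adult Slc17a6-EGFP/Rpl10a transgenic mice of line JX883, untreated, provided all libraries. In this line an EGFP-tagged ribosomal protein is made in cells in which Slc17a6, the gene of the vesicular glutamate transporter VGLUT2, directs the transgene. There were 3 libraries of RNA immunopurified with anti-EGFP antibodies, each from 3 mice by the labels, and together they form 1 group (replicates 1, 2 and 3). The tables analysed here hold neither input RNA nor a second condition, so levels describe the purified RNA as a whole, and RNA carried along without a tagged ribosome cannot be told apart from the bound RNA.

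Cyclic AMP and cyclic GMP are second messengers that neurons make in response to transmitters. Adenylyl cyclases make cyclic AMP under control of G proteins and, for some isoforms, calcium. Guanylyl cyclases make cyclic GMP, the soluble forms in response to nitric oxide and the membrane forms as receptors or sensors. Phosphodiesterases break either or both messengers down. Cyclic AMP releases the catalytic subunits of protein kinase A from an inhibitory pair of regulatory subunits. In prefrontal cortex this pathway is known for its control of working memory circuits and of synaptic plasticity.

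Replicate 1 held 12592174 counts of named genes, replicate 2 held 8964137 and replicate 3 held 12648577. Levels scaled to that total are given as CPM, the standard depth-scaled count. A count of 0 allows up to 0.238, 0.335 and 0.237 CPM in the 3 libraries (3 counts, a limit that covers counting error alone because reads lacking molecular identifiers may be copies of 1 molecule). Levels of different genes are compared as TPM, which also divides by the length of the merged exons of a gene. The driver gene Slc17a6 was at 831 ± 97.4 CPM (SD, n = 3), and 10 of 10 glutamatergic neuron markers reached 1 CPM in every library. Markers of other cells were present too: 9 of 10 GABAergic neuron, 7 of 7 astrocyte and 6 of 7 oligodendrocyte markers reached that level. Summed over each list, glutamatergic neuron markers were at 5341, 5313 and 5656 CPM in replicates 1, 2 and 3. GABAergic neuron markers were at 957, 953 and 1014 CPM. Astrocyte markers were at 1326, 1481 and 1519.9 CPM, and oligodendrocyte markers at 427, 573 and 588 CPM. Such sums rest mostly on a list's most abundant genes: in the astrocyte list Slc1a2 was at 985 CPM and Gfap at 13.1 CPM. The cells in which a member's message was made were therefore not resolved, and fewer cells of a type and less RNA per cell cannot be told apart in such bulk libraries.

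Of the 49 members, 35 reached 1 CPM in every library, or 71.4%, where 37.9% of all gene symbols did. A further 12 had counts but stayed below 1 CPM in at least 1 library, and Pde6a and Gucy2d had 0 counts in every library. The median of the 35 detected members was 85.4 CPM, against 24.0 CPM over the 12321 genes detected by the same rule. Together the members held 0.632%, 0.628% and 0.627% of counts in replicates 1, 2 and 3. The plot of levels per length shows that protein kinase A subunits were the most abundant of the 4 families, at a summed 3725 ± 89.4 TPM. Phosphodiesterases summed to 1158 ± 73.3 TPM, adenylyl cyclases to 509 ± 7.58 TPM and guanylyl cyclases to 350.2 ± 6.79 TPM.

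**Figure D1:**
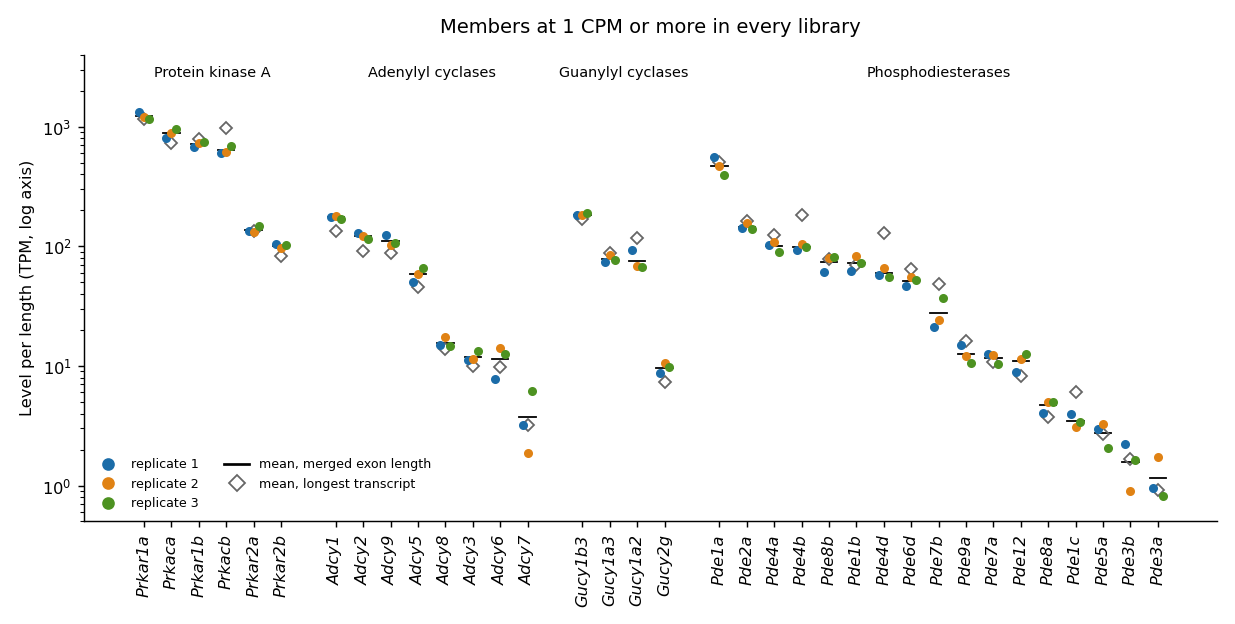
Level per length (TPM, log axis) of the 35 members at 1 CPM or more in every library, ordered by mean within each family; points are single libraries, lines their means over merged exon lengths, and open diamonds the means when the longest transcript is used as the length. Protein kinase A subunits lie highest, led by Prkar1a at 1241 TPM, and Pde1a stands apart from the other phosphodiesterases at 474 TPM.

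The leading member of each family by TPM was Prkar1a (protein kinase A), Pde1a (phosphodiesterases), Adcy1 (adenylyl cyclases) and Gucy1b3 (guanylyl cyclases). Their promoters are shown because CREB, the transcription factor that protein kinase A phosphorylates, binds the cyclic AMP response element. Each sequence is the 250 bases before a RefSeq transcription start (for Prkar1a, the 1 of its 6 starts with the element upstream of it; for Pde1a, the most upstream of 4), read 5′ to 3′ on the gene's strand (build GRCm38.p6), and capitals mark that element, the letters TGACGTCA, which read the same on both strands. The windows lie at chr11:109650699-109650948 (plus strand) for Prkar1a, chr2:80129413-80129662 (minus) for Pde1a, chr11:7063183-7063432 (plus) for Adcy1 and chr3:82074712-82074961 (minus) for Gucy1b3.
Prkar1a: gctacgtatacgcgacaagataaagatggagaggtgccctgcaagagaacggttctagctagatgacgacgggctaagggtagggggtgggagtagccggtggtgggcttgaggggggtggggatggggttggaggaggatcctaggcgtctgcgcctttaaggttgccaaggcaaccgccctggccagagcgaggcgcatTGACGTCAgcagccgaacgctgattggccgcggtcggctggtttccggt
Pde1a: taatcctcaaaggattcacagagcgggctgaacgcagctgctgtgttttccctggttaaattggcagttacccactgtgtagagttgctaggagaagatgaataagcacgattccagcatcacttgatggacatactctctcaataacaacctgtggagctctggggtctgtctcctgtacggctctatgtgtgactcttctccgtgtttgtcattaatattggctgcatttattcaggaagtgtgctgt
Adcy1: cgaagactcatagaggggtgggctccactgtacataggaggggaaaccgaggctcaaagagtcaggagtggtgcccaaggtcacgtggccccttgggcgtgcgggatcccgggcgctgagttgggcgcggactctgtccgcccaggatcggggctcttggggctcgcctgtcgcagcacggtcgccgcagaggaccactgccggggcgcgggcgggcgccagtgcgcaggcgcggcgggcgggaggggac
Gucy1b3: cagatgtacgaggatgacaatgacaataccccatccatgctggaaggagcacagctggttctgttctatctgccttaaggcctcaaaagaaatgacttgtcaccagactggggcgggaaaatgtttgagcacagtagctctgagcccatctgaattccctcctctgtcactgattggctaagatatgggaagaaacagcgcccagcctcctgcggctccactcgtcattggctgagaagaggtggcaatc

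The element stood 49 bases before this start of Prkar1a. Among windows of 300 bases that also take in the first 50 transcribed bases, 1 of the 39 members with a RefSeq window held the element, and that member was Prkar1a, in 2 of its 6 windows, which overlap each other. Of all 32851 such windows in RefSeq, 1.79% held it, and of the 77 windows of members 2.6% did. Counted by gene, 2.03% of 27025 genes held it, and 2.56% of the 39 members did. The match is a description of the letters and not of a bound site. GC content of the printed stretches was 61.6% for Prkar1a, 46.0% for Pde1a, 71.2% for Adcy1 and 51.2% for Gucy1b3, where the median over all windows was 52.4%.

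All 6 protein kinase A subunits were detected, and type I regulatory subunits made up most of the regulatory message. Prkar1a (ENSMUSG00000020612.16, mm10 chromosome 11, 109649405 to 109669656), which encodes the widely expressed regulatory subunit RI alpha, was at 1340, 1211 and 1173 TPM in replicates 1, 2 and 3, the highest member per length. Its neuronal counterpart Prkar1b, encoding RI beta, followed at 681, 734 and 749 TPM. The type II genes were lower in every library: Prkar2a (RII alpha) at 135, 132 and 147 TPM. Prkar2b, encoding the RII beta subunit that is prominent in forebrain, was at 104, 97.5 and 103 TPM. The ranges of these 4 genes over the libraries did not overlap. Summed, type I exceeded type II subunits by 3.04 ± 0.08 log2 units (8.20-fold), and did so in 3 of 3 libraries.

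Each log2 ratio was formed inside its library and set against 0 by flipping signs over the libraries, a two-sided exact permutation. Its smallest p with 3 libraries is 0.25, so none of the 11 contrasts made could pass 0.05. Type I against type II had an exact permutation p of 0.25 (adjusted p = 0.275 over 11 contrasts), as did every contrast with 1 direction in 3 of 3 libraries. Prkar1b lay below Prkar1a by 0.78 ± 0.17 log2 units, which is -0.98, -0.72 and -0.65 in replicates 1, 2 and 3. Prkar2b lay below Prkar2a by 0.44 ± 0.07. Both held their direction in 3 of 3 libraries.

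The catalytic subunits Prkaca (C alpha, chromosome 8, 83972993 to 83996443) and Prkacb (C beta, chromosome 3, 146729574 to 146812990) changed places with the length used. Prkacb had the more reads, at 1073, 1097 and 1232 CPM, and ranked 62 of all symbols. Prkaca was at 409.6, 450.1 and 488 CPM. Over merged exons, which span 8772 bases for Prkacb and 2488 for Prkaca, the order turned: Prkaca stood at 888 ± 79.2 TPM and Prkacb at 636 ± 49.0 TPM, a log2 ratio of -0.48 ± 0.05 for Prkacb against Prkaca. With the longest transcript, 4347 and 2276 bases, the same ratio was 0.40, so which catalytic message was more abundant cannot be told without knowing the transcripts present. Regulatory subunits together exceeded catalytic subunits by 0.53 ± 0.15 log2 units (1.45-fold) in 3 of 3 libraries. The size of that ratio also depended on the length: it was 0.34 with the longest transcript and 0.27 in CPM.

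Among adenylyl cyclases, 4 genes (Adcy1, Adcy2, Adcy9 and Adcy5) stood above the other 6 in every library. Adcy1 (chromosome 11, 7063489 to 7178506), the calmodulin-stimulated cyclase of neurons, was highest at 178, 179 and 169 TPM. Adcy2, which G protein beta-gamma subunits stimulate, was at 129, 122 and 115 TPM. Adcy9, a cyclase with low sensitivity to forskolin, was at 123, 103 and 106 TPM. The values of Adcy2 and Adcy9 overlapped, and all 3 libraries of Adcy1 lay above both. Adcy1 carries a long transcript: its 446 ± 13.98 CPM placed it at rank 291 by reads but at rank 1143 by TPM.

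Adcy5, the calcium-inhibited cyclase that prevails in striatum, was at 50.4, 59.1 and 65.9 TPM, with its lowest value in replicate 1 and its highest in replicate 3. Below it, Adcy8 (calcium-stimulated) was at 15.7 ± 1.44 TPM. Adcy3, the cyclase of neuronal primary cilia and olfactory neurons, and Adcy6 (calcium-inhibited) overlapped at 11.99 ± 1.28 and 11.5 ± 3.29 TPM. Of the exonic bases of Adcy3, 22.1% were shared with Cenpo on the other strand. Adcy7 was at 3.77 ± 2.20 TPM (4.45, 2.57 and 8.46 CPM). Adcy4 had 1, 0 and 0 counts and the soluble, bicarbonate-activated cyclase Adcy10 had 3, 3 and 1. By group, calcium-stimulated cyclases took 39.9% ± 0.94 of the summed cyclase TPM. The beta-gamma-stimulated group (Adcy2, Adcy4 and Adcy7) took 24.6% ± 0.76, Adcy9 21.7% ± 1.90 and the calcium-inhibited pair 13.8% ± 2.26. Calcium-stimulated exceeded calcium-inhibited cyclases by 1.55 ± 0.24 log2 units (2.93-fold) and the beta-gamma-stimulated group by 0.69 ± 0.06 (1.62-fold), each in 3 of 3 libraries.

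**Figure D2:**
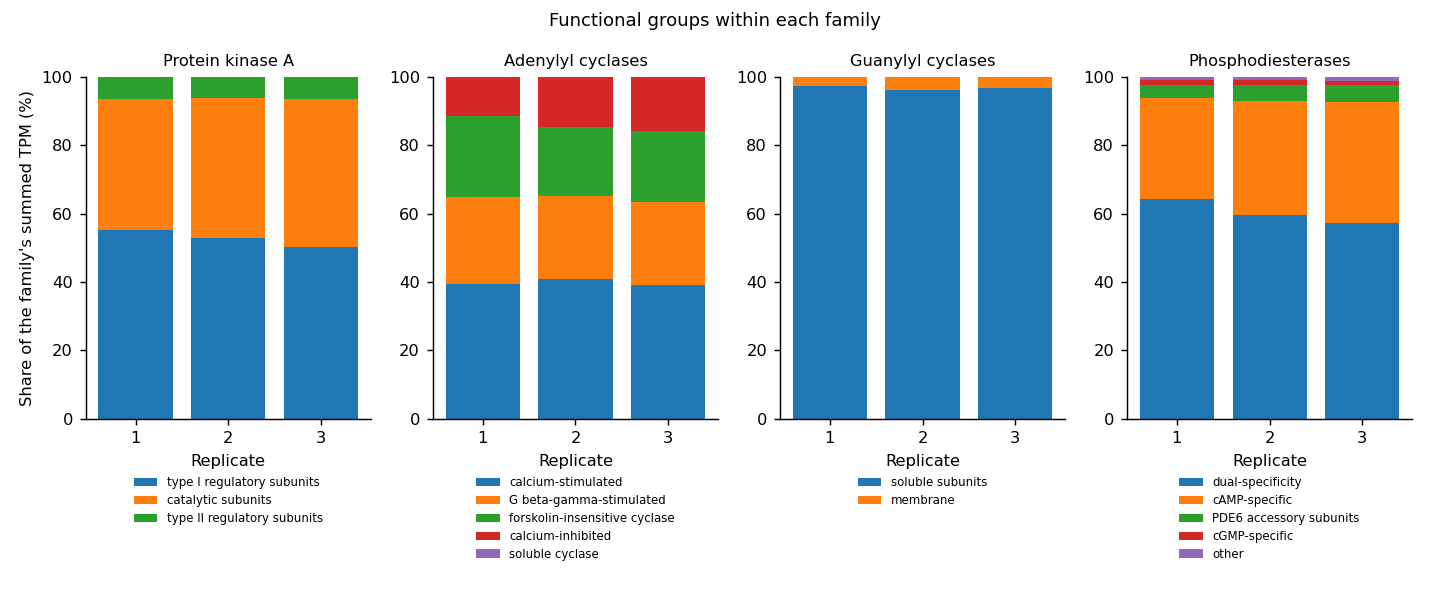
Share of each family's summed TPM (%, bars from 0 to 100) held by its functional groups in replicates 1, 2 and 3. Type I regulatory subunits take 52.7% of protein kinase A message on average, soluble guanylyl cyclase subunits 96.9% of the message of Gucy genes, and dual-specificity phosphodiesterases 60.4% of phosphodiesterase message.

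The phosphodiesterases were dominated by 1 gene. Pde1a (chromosome 2, 79834453 to 80129458), a calcium- and calmodulin-activated enzyme that breaks down both messengers, was at 556, 469.8 and 395 TPM in replicates 1, 2 and 3 and held 40.8% ± 4.99 of the family's TPM. Replicate 1 was the highest and replicate 3 the lowest, and the lowest value still lay above every value of the other members of the family. Its relatives were far lower, with Pde1b, which prevails in striatum, at 62.1, 82.7 and 72.5 TPM. Pde1c was at 3.47 ± 0.439 TPM.

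Next after Pde1a stood Pde2a, the dual-specificity enzyme that cyclic GMP stimulates, at 142, 157 and 141 TPM. In the mm10 annotation 64.3% of its exonic bases are shared with the gene model Gm45837 on the same strand, a symbol with no row in the count tables. The cyclic GMP-inhibited enzymes Pde3a (1.17 ± 0.489 TPM) and Pde3b (1.58 ± 0.659 TPM) were near the lower end. Pde11a, also of dual specificity, had 26, 1 and 19 counts and fell short of 1 CPM in replicate 2. As a group, the 7 dual-specificity genes held 60.4% ± 3.47 of phosphodiesterase TPM, and 6 of them were detected in every library.

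Cyclic AMP-specific phosphodiesterases held 32.7% ± 2.88, with 7 of 8 genes detected. Of the Pde4 genes, the targets of rolipram, Pde4a was at 103, 108 and 90.02 TPM. Pde4b was at 94.1, 105 and 99.0 TPM, which overlapped with Pde4a. Pde4d was at 57.8, 66.3 and 55.5 TPM, and Pde4c had 6, 0 and 1 counts. The 3 detected Pde4 genes have many alternative first exons: with the longest transcript as length they came to 125 ± 11.7, 184 ± 10.1 and 129 ± 12.3 TPM for Pde4a, Pde4b and Pde4d, which put Pde4b first and ahead of Pde2a at 162 ± 10.04.

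Among the rolipram-insensitive cyclic AMP enzymes, Pde8b was at 61.6, 79.8 and 81.6 TPM and its relative Pde8a at 4.69 ± 0.563 TPM. Pde7b was at 21.2, 24.3 and 36.9 TPM, highest in replicate 3, and Pde7a at 11.7 ± 1.23 TPM. Dual-specificity exceeded cyclic AMP-specific enzymes by 0.88 ± 0.21 log2 units (1.85-fold), as 1.12, 0.84 and 0.70 in replicates 1, 2 and 3. That ratio was 0.36 with the longest transcript, 0.30 in CPM and 1.02 with Pde10a added to the first group. With Pde2a left out for its shared exonic bases it was 0.54. Pde10a, a dual-specificity enzyme of striatal projection neurons that is outside the rule, was at 46.8, 71.3 and 78.2 TPM. In reads that was 123, 186 and 204 CPM.

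Cyclic GMP-specific phosphodiesterases held only 1.39% ± 0.13 of the family's TPM, and 2 of 5 genes were detected. Pde9a, the high-affinity enzyme of brain, was at 15.1, 12.1 and 10.6 TPM, and Pde5a, the target of sildenafil, at 2.97, 3.30 and 2.06 TPM. The catalytic subunits of the photoreceptor enzyme were at the floor: Pde6a had 0 counts in all libraries, Pde6b 0, 16 and 0 counts, and Pde6c 0, 0 and 6 counts. Photoreceptor markers stood as low, with 0 of 6 at 1 CPM in every library, 0 counts of Crx, and summed levels of 0.397, 2.12 and 0.949 CPM in replicates 1, 2 and 3. The rod transducin gene Gnat1 had 1, 10 and 0 counts, its most in the library that held all counts of Pde6b. The cyclic AMP-specific group exceeded the cyclic GMP-specific group by 4.55 ± 0.26 log2 units (23.5-fold) in 3 of 3 libraries.

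Some Pde symbols do not name enzymes of cyclic nucleotide breakdown in neurons. Pde6d, whose product carries prenylated proteins to membranes, was at 51.6 ± 4.55 TPM, while the photoreceptor inhibitory subunits Pde6g and Pde6h had at most 5 and 2 counts in a library. Pde12, a mitochondrial enzyme that trims poly(A) tails, was at 10.998 ± 1.87 TPM.

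Soluble guanylyl cyclase, a heterodimer of an alpha and a beta subunit, made up 96.9% ± 0.50 of the TPM of Gucy genes. The beta 1 subunit gene, Gucy1b3 in the tables and Gucy1b1 in the mm10 annotation (chromosome 3, 82032006 to 82074689), was highest at 182, 182 and 189 TPM. The alpha 1 gene, Gucy1a3 in the tables (Gucy1a1 in the annotation), was at 73.6, 84.8 and 77.3 TPM. The alpha 2 gene Gucy1a2 was at 92.4, 68.4 and 67.2 TPM, above alpha 1 in replicate 1 and below it in the other libraries. The alpha 1 to alpha 2 contrast was 0.06 ± 0.34 log2 units, positive in 2 of 3 libraries (by exact permutation of signs p = 1.0, and 1.0 after adjustment), and -0.41 with the longest transcript. Beta 1 lay above each alpha gene in every library. The beta 2 gene Gucy1b2 had 6, 0 and 5 counts.

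Of the 5 membrane guanylyl cyclases with a Gucy symbol, 1 was detected in every library. The receptor cyclases Npr1 and Npr2 carry other symbols and are outside the rule. Npr2 was at 9.21 ± 1.19 TPM and reached 1 CPM in every library. Npr1 was at 1.61 ± 0.945 TPM and fell short of 1 CPM in replicate 3. Gucy2g, known from sperm and olfactory neurons of rodents, was at 8.71, 10.6 and 9.71 TPM. The retinal cyclase gene Gucy2e had 16, 33 and 10 counts, short of 1 CPM in replicate 3. Gucy2f had 0, 0 and 6 counts, the intestinal guanylin receptor gene Gucy2c had 0, 0 and 2, and Gucy2d had none. Among the Gucy genes alone, without Npr1 and Npr2, soluble exceeded membrane cyclases by 4.98 ± 0.24 log2 units (31.5-fold) in 3 of 3 libraries.

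**Figure D3:**
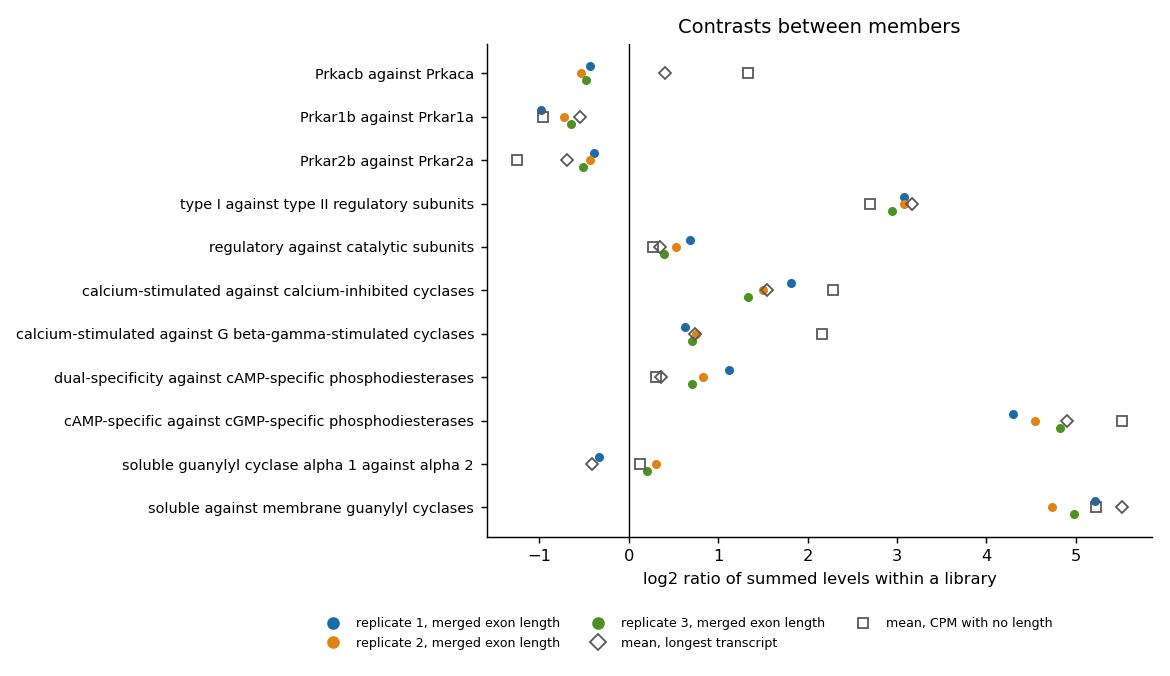
The 11 contrasts between members as the log2 ratio of summed levels within a library (x axis); coloured points are single libraries over merged exon lengths, open diamonds means with the longest transcript and open squares means in CPM. Prkacb against Prkaca crosses 0 with the length used, from -0.48 to 0.40, and alpha 1 against alpha 2 crosses 0 between libraries.

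The order of neighbours in mean TPM was read against the spread over libraries. For adenylyl cyclases the ranges of 5 of 7 neighbouring pairs did not overlap, and for protein kinase A subunits 4 of 5 did not, the exception being Prkar1b and Prkacb. For guanylyl cyclases 2 of 3 pairs were separate. Among phosphodiesterases only 7 of 16 were, and the middle of that order, from Pde8b through Pde1b and Pde4d to Pde6d, overlapped from each gene to the next. With the longest transcript as length, 2 neighbouring pairs of protein kinase A subunits changed order (Prkaca with Prkar1b, and Prkar1b with Prkacb), as did 3 of phosphodiesterases (Pde4a with Pde4b, Pde1b with Pde4d, and Pde8a with Pde1c). The alpha genes Gucy1a3 and Gucy1a2 also changed places, and no pair of adenylyl cyclases did.

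The other question the libraries allow is whether a member varied between them more than genes of like abundance. Of 14774 genes with at least 10 counts in a library, 36 were called in edgeR at an adjusted p of 0.05, from how far their counts departed from a single shared mean, or 0.244%. None of the 38 members tested was among them (0 calls in edgeR and 0 with the limma variance test, which had Pde1a and Pde7b under 0.05 before adjustment), and 2 of 38 had an unadjusted p under 0.05, or 5.26%, where 7.22% of all genes did. Each library is a pool of 3 mice by the labels, so p-values measure the spread between pools. The remaining 11 members did not reach 10 counts in any library. The smallest p belonged to Pde6b, with its counts in replicate 2 alone (adjusted p = 0.314 in edgeR). When 1 dispersion was shared by all genes, 1097 of the 14774 genes were called. Of the 38 members 2 were among them, Pde6b (adjusted p = 3.22e-05 in edgeR) and Pde11a (adjusted p = 0.0327). The highest counts of these 2 members in a library were 16 and 26.

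The other member under 0.05 before adjustment was Pde7b, at 53.9, 61.4 and 93.2 CPM (adjusted p = 0.493 in edgeR). Its value in replicate 3 lay 1.73-fold above that in replicate 1. Pde1a followed at 683, 573 and 483 CPM, a 1.41-fold range (adjusted p = 0.81 in edgeR). Without replicate 3 the adjusted p of Pde7b was 1.0, and without replicate 2 it was 0.465. At the other end, Gucy1b3 varied by 2.37% (coefficient of variation over the 3 libraries), Adcy1 by 3.13% and Prkar2b by 3.53%. The median over the 35 detected members was 10.4%, against 15.8% over all detected genes, which were also less abundant.

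**Figure D4:**
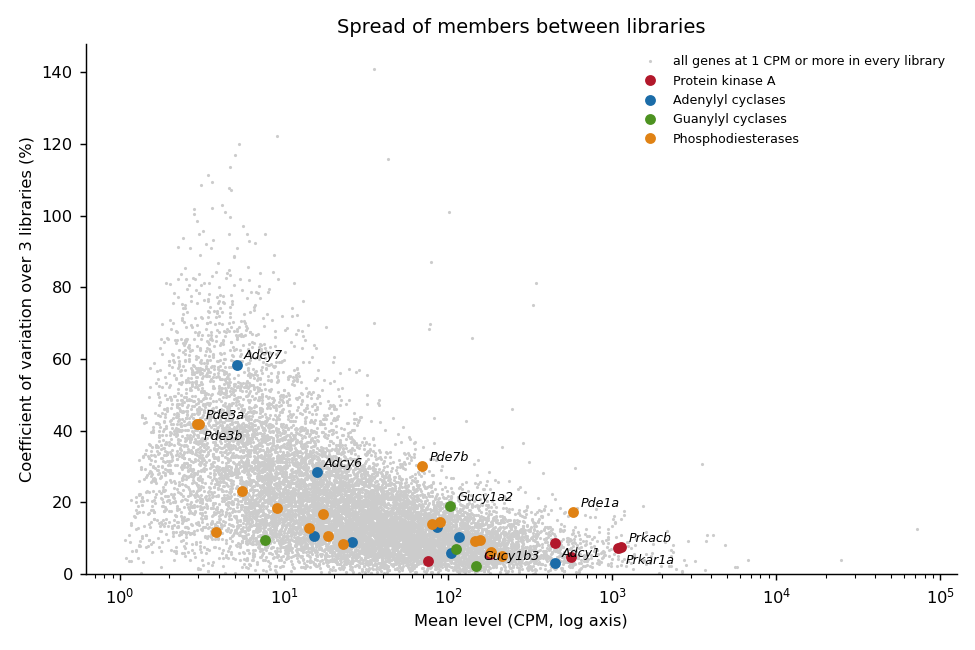
Coefficient of variation over the 3 libraries (%) against mean level (CPM, log axis) for the 12321 genes that reached 1 CPM throughout (grey) and the 35 detected members (coloured by family). Pde7b lies at 30.0% and Pde1a at 17.2%, while Gucy1b3 (2.37%) and Adcy1 (3.13%) lie among the least variable members.

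Members did not share 1 order of the libraries. Of the 35 detected members, 8 were lowest in replicate 1 and highest in replicate 3 (22.9%, against 15.4% of all detected genes): Adcy3, Adcy5, Pde7b, Pde8b, Pde12, Prkaca, Prkacb and Prkar1b. In the opposite order were 6 (17.1%, against 17.3%): Adcy2, Gucy1a2, Pde1a, Pde7a, Pde9a and Prkar1a. No member in either set was called. Some marker lists of other cells were ordered in the same ways. Summed striatal projection neuron markers were at 733, 921 and 1023 CPM in replicates 1, 2 and 3, with 7 of 12 genes in that order and 12 of 12 at 1 CPM in every library. The astrocyte and oligodendrocyte sums given above and the oligodendrocyte precursor sum (56.1, 71.3 and 84.0 CPM) were also lowest in replicate 1 and highest in replicate 3. Olfactory bulb output neuron markers summed to 291, 245 and 147 CPM, with 5 of 6 genes at 1 CPM in every library. Of this list 1 gene was called, Cdhr1, at 116, 95.9 and 17.3 CPM (adjusted p = 2.28e-15 in edgeR), while Trh lay in the opposite order at 15.5, 30.6 and 40.004 CPM (adjusted p = 0.274 in edgeR). The part of these cells in the members' values was not tested.

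**Figure D5:**
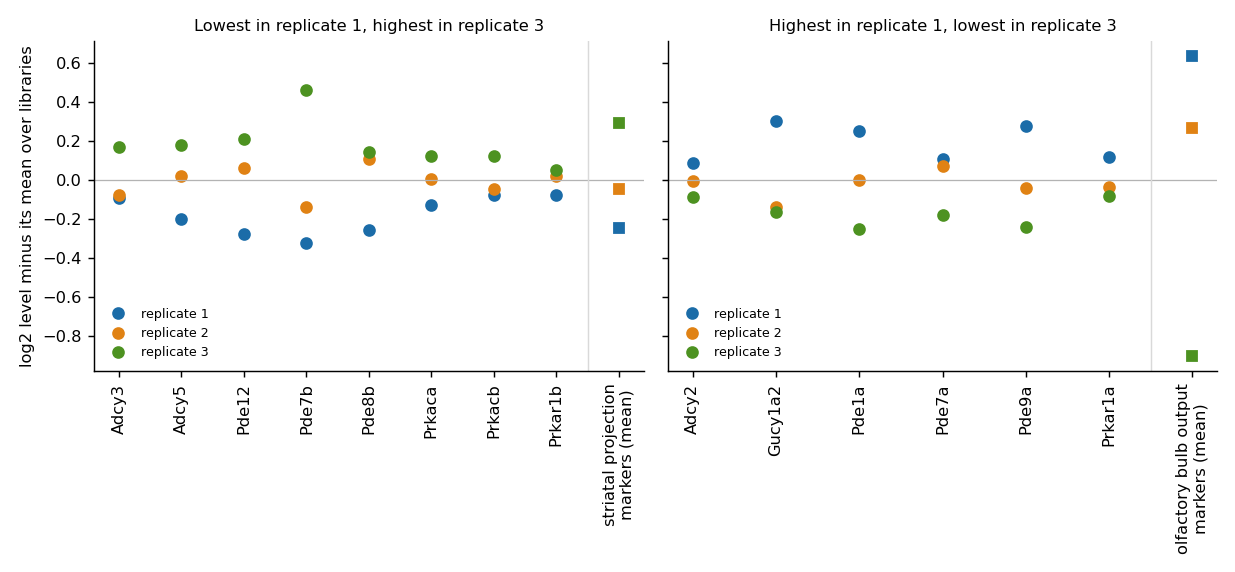
Level of single members in each library as log2 CPM minus its mean over the 3 libraries, for the 8 members lowest in replicate 1 and highest in replicate 3 (left) and the 6 in the opposite order (right), with the mean log2 level of a marker list at the right of each panel (squares). Pde7b has the widest spread on the left; the olfactory bulb marker list spreads more widely than any member shown on the right.

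Genes around the pathway were described from 7 lists, of which 48 of 59 genes reached 1 CPM in every library. Of the 53 that could be tested, 0 were called in edgeR and 3 had an unadjusted p under 0.05 (Akap10, Nos1 and Pde10a), where 0.244% of all genes tested were called and 7.22% were under 0.05 unadjusted. The G protein subunits that drive or restrain cyclases were the most abundant, with 7 of 7 detected. Gnas, the stimulatory alpha subunit, was at 1411 ± 55.8 TPM and the inhibitory Gnai1 at 1378 ± 84.5 TPM. This nearness depended on the length. With the longest transcript Gnas was at 3023 ± 123 TPM, Gnao1 at 1302 ± 6.25 TPM and Gnai1 at 1042 ± 62.8 TPM. In reads Gnas was at 3210 ± 120 CPM and Gnai1 at 879 ± 56.6 CPM. The lowest by reads was Gnai3 at 35.4 ± 4.69 CPM.

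Anchoring proteins, which hold protein kinase A at its substrates, were detected for 10 of 11 genes. Akap11 led at 150.1 ± 10.7 TPM, followed by the postsynaptic anchor Akap5 at 129.8 ± 0.284 TPM, while Akap2 had 0 counts. Of the 3 peptide inhibitors of the kinase all were detected, with Pkia highest at 419 ± 50.4 TPM. Pkig was at 11.3 ± 1.83 TPM and was the lowest of the 3 by reads, at 9.15 ± 1.46 CPM. Among other cyclic AMP effectors 7 of 10 were detected. These were led by Rapgef4, the exchange factor Epac2, at 109 ± 7.24 TPM, with Bves lowest at 0.443 ± 0.511 CPM. Substrates and transcription factors were detected for 10 of 10 genes. Arpp19 was at 292 ± 7.89 TPM and Ppp1r1b, encoding the striatal phosphoprotein DARPP-32, at 107 ± 25.0 TPM, with the coactivator gene Crtc2 lowest at 7.87 ± 2.75 CPM. Arpp21 was at 95.6 ± 16.1 TPM. With the longest transcript as length it was at 237 ± 40.1 TPM, above Ppp1r1b at 118 ± 27.8 TPM.

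Of the kinases, channels and inputs of cyclic GMP signalling, 7 of 13 genes were detected. Prkg1, the kinase activated by cyclic GMP, was at 18.4 ± 3.10 TPM. Nos1, which makes the nitric oxide that activates soluble guanylyl cyclase, was at 12.1 ± 6.82 TPM. In reads it was at 17.5, 45.1 and 19.4 CPM, highest in replicate 2 (adjusted p = 0.131 in edgeR). The channel genes Cnga1 and Cnga2 had 0 counts. Phosphodiesterases outside the rule were detected for 4 of 5 genes, led by the myelin gene Cnp at 154 ± 17.5 TPM and Enpp2 at 109.6 ± 12.7 TPM, with Enpp1 at 0.979 ± 0.540 CPM.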

How the data were processed

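RNA bound to EGFP-tagged ribosomes was sequenced in 3 immunopurified libraries of mouse prefrontal cortex, a single group. The authors deposited raw read counts per gene symbol for each library. Per the submitters' processing notes STAR 2.0.0e, HTSeq and the build mm10 were used. Which annotation and strand setting were applied is not given in the sources used here. Overlapping genes may therefore share reads. Lines that name no gene held 27.9%, 27.2% and 28.3% of each table (replicates 1 to 3) and were left out of totals.

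CPM was computed over the 32531 named genes, and TPM over merged exon lengths of GENCODE M21 (all 49 members matched, 2 of them through RefSeq synonyms). Variation between libraries was tested with edgeR 4.0.16 in R 4.3.3 (TMM, intercept-only model, trended dispersion, at least 10 counts in 1 library, Benjamini-Hochberg over 14774 genes), and checked on simulated data. Ratios within a library were tested by exact sign flips. Alternatives were DESeq2 1.42.0 size factors, a common dispersion, a limma 3.58.1 variance test, other filters and lengths, each library left out, and totals without Rn45s. The test of variation without Rn45s was added after seeing the data. Promoter letters came from RefSeq (GRCm38.p6), which gave a window for 39 members. All members were named with values or counts. For each pathway list the 2 highest genes by TPM and the lowest by CPM were named, plus Pde10a, except for 1 gene that is not reported here. Members and lists were chosen with earlier results of these data known.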

Additional observations from a re-analysis of the deposited data

How the results depend on the processing

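Over the alternatives, 73 values of the 11 contrasts kept their direction and 5 did not. A contrast with the same direction in every library has to keep it when a library is left out. Several values with members left out equal the main value because the contrast held no such member. The 73 values are therefore not separate checks of direction. Prkacb against Prkaca turned to 0.40 with the longest transcript and to 1.34 in CPM, which takes no account of length. Alpha 1 against alpha 2 was -0.41 with the longest transcript and lay between -0.062 and 0.26 with 1 library left out, negative without replicate 2 or 3. The count of members varying was 2 of 38 with a common dispersion, under which 1097 of 14774 genes were called in all. It was 0 under the other 9 alternatives. The 35 detected members became 36 at 0.5 CPM and 30 at 5 CPM, and stayed 35 with totals without Rn45s. Those smaller totals raised CPM values, with mean CPM going from 446 to 481 for Adcy1 and from 1134 to 1223 for Prkacb.

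Shares of summed levels moved with the length. With the longest transcript, dual-specificity phosphodiesterases held 52.5%, cyclic AMP-specific ones 40.9% and Pde12 0.589%. Catalytic subunits held 44.1% and type II subunits 5.61%. Among Gucy genes, soluble guanylyl cyclases held 97.8% and membrane ones 2.16%. In CPM, calcium-stimulated cyclases held 59.8%, the beta-gamma-stimulated group 13.4% and Adcy9 14.3%. Dual-specificity enzymes held 53.3%, cyclic AMP-specific 43.2%, cyclic GMP-specific 0.946% and the accessory subunits of phosphodiesterase 6 1.44%, while catalytic, type I and type II subunits held 45.4%, 47.3% and 7.29%. Members under about 0.3 CPM are near the level that a count of 0 allows, and differences there were not detectable at this depth.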
